A study of Mus musculus with 4 samples.

Results

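The genes described here encode the enzymes that make purine and pyrimidine nucleotides, from the activated sugar that both routes use to the kinases that finish them. The set is 32 mouse genes of de novo synthesis and salvage, leaving out the deoxynucleotide enzymes of S phase. Its members were found by matching GENCODE M21 names to the Ensembl IDs of the tables. Of the 32 genes, 31 were among the 38282 IDs, and all 31 passed the filter for testing, which was a mean over the 4 libraries of 1 FPKM or more (fragments per kilobase of transcript, scaled to library size). The M21 identifier of Pnp, the purine nucleoside phosphorylase, is not one of those IDs, so Pnp was not analysed under its own name; a gene at its locus is described with purine salvage.

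Cells build the purine ring stepwise on phosphoribosyl pyrophosphate (PRPP), ending at inosine monophosphate (IMP), which is then turned to AMP or GMP. The pyrimidine ring is made first and joined to PRPP afterwards, to give UMP and then CTP. Salvage enzymes recover bases and nucleosides in place of new synthesis. T cells that leave rest and divide are known to raise both routes, since each division needs nucleotides for RNA and DNA, and drugs against IMP dehydrogenase or dihydroorotate dehydrogenase are used to restrain lymphocytes.

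The samples were C57BL/6 mouse splenic naive CD4+ T cells kept in Th0 culture, that is activation without the cytokines that set a T helper lineage, and harvested on day 4. One group had no dopamine (Th0) and the other was cultured with dopamine (Th0+Dopa). Each group holds 2 libraries, numbered 2 and 3, made from total RNA after depletion of ribosomal RNA and globin mRNA. The sources used here do not give the dose and timing of dopamine, the age of the mice or whether the libraries came from separate cultures. The p-values therefore reflect variation among these 4 libraries alone, and that variation could be technical. Libraries numbered 2 are in a table of their own and those numbered 3 in a second, made separately, so differences were taken within a table; levels set side by side across tables carry that limit.

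The cells' labels were checked against marker genes. Cd4 stood between 115 and 123 FPKM and Cd3d between 134 and 209 in the 4 libraries, while Cd8a was at most 0.853 FPKM and the NK cell gene Ncr1 was listed at 0. Cd8b1, the other CD8 chain, stood at 3.76 and 3.34 FPKM in Th0 against 5.99 and 4.19 in Th0+Dopa, 0.41 ± 0.22 (limma adjusted p = 0.294). Of 12 T cell markers 4 rose with dopamine (Cd3d, Cd5, Cd6 and Zap70) and 1 fell (Trac), and their summed FPKM was 1835 and 1881 in Th0 against 1990 and 1915, or 0.267% and 0.263% of all summed FPKM against 0.226% and 0.241%. Markers of other blood cells were present and moved with the treatment. Of 12 macrophage and dendritic cell markers, 11 fell with dopamine and their summed level was 531 and 714 FPKM in Th0 against 86.05 and 82.9 in Th0+Dopa. All 7 tested markers of granulocytes and mast cells fell, with sums over the 9 listed of 439 and 584 against 48.2 and 46.01 FPKM; Elane was listed at 0 in both Th0+Dopa libraries and Ngp in one of them. The part of these cells in the results that follow was not tested. In bulk RNA, fewer cells of a type and less RNA per cell cannot be told apart. By the steps between low values, 1 fragment on a transcript of 1 kb was worth 0.148 to 0.197 FPKM, and the least covered member in any library rested on an estimated 54.2 fragments. The step of Th0 3, 0.197 FPKM, was larger than the 0.148 to 0.151 FPKM of the other libraries. A smaller step there would give more fragments.

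With dopamine, 7 nucleotide synthesis genes were called higher and 0 lower. The genes that rose were Nme2, Nme1, Guk1, Adsl, Impdh2, Adk and Dhodh, and their rises ran from 0.48 to 0.94 on the log2(FPKM + 1) scale, or 1.39-fold to 1.91-fold. The call was a limma adjusted p under 0.05 over all 11423 genes tested, with the table as a block. The 7 of 31 members called higher make 22.6%, where 6.28% of all tested genes were called higher and 4.39% lower. The other 24 members did not pass in either direction. Over the 31 members the median log2 difference was 0.20, against 0.03 over all tested genes, and the members ranged from -0.37 (Prps2) to 0.94 (Nme2). In 19 members both pairs of libraries were higher with dopamine, in 7 both were lower, and in 5 the pairs went opposite ways; of all tested genes, 37.6% were higher in both pairs and 32.3% lower in both. In 19 members both dopamine libraries lay above both Th0 libraries and in 6 both lay below, which held for 31.4% and 25.6% of all tested genes. At an unadjusted p under 0.05 there were 15 members higher and 2 lower, where 15.7% of all tested genes were higher and 12.2% lower by the same measure.

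The calls depended on how the model was fitted. Without the block, with all 4 libraries, 1 of the 7 passed (Nme2). Over all tested genes that fit called 256 higher and 240 lower, against 717 and 501 with the block. No member passed without limma's trend, where the adjusted p of the 7 ran from 0.0918 to 0.176, or in the fits without Th0 2, Th0+Dopa 2, Th0 3 or Th0+Dopa 3, where it ran from 0.228 to 0.344, 0.195 to 0.474, 0.328 to 0.609 and 0.116 to 0.181; all 7 kept their direction in these 5 fits. The fits without a library also had no block and another scaling, so the part of the missing library cannot be told apart from these. Scaling each library to a common sum moved the median of all genes from 0.03 to -0.20 and the share of calls that were higher from 58.9% to 26.1%; Nme1 and Nme2 then remained higher, and Prps2 and Hprt were called lower (limma adjusted p = 0.0389 and 0.0432). The members' median was 0.18 above that of all genes as deposited and 0.15 above it after this scaling. Summed over the members, FPKM was 2169 and 2109 in Th0 and 2720 and 2441 in Th0+Dopa, while the share of all summed FPKM was 0.316% and 0.295% against 0.309% and 0.307%.

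**Figure D1:**
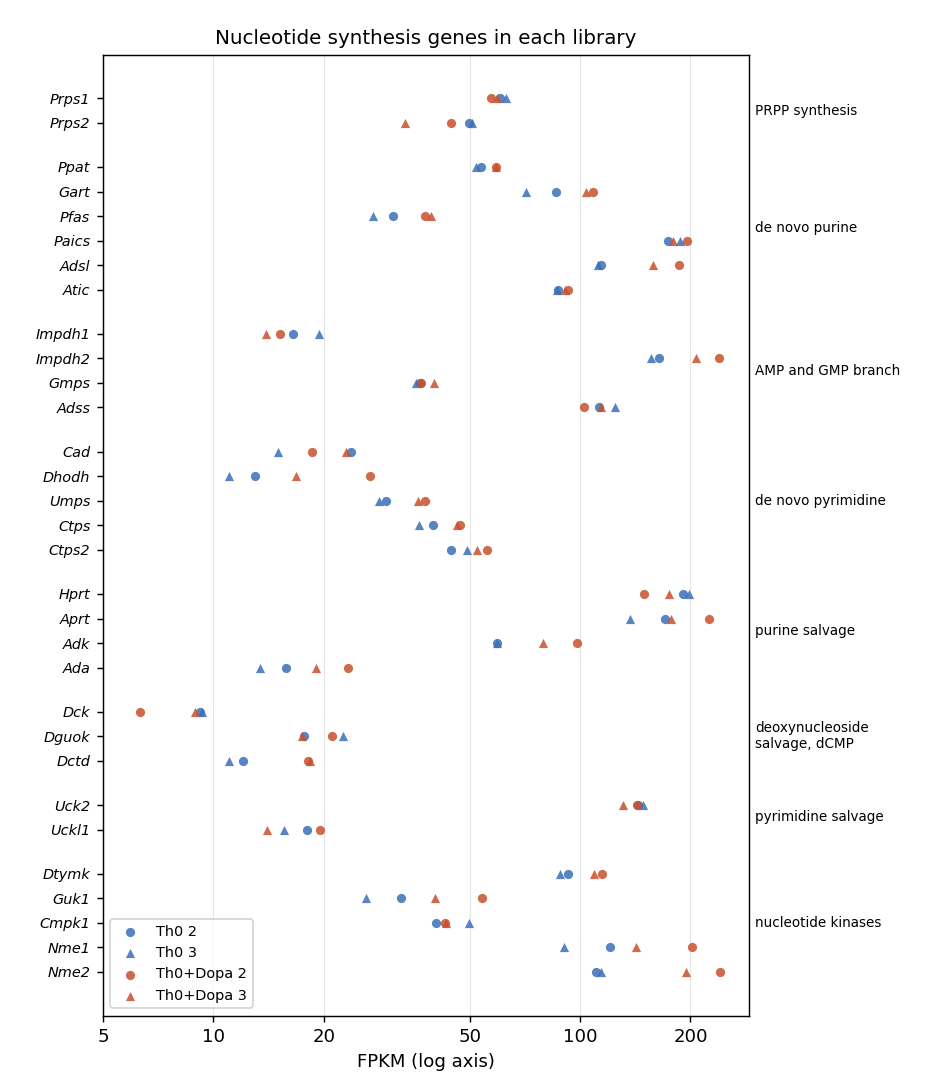
FPKM on a log axis (x) of the 31 tested nucleotide synthesis genes (y, grouped by role) in each of the 4 libraries, blue for Th0 and red for Th0+Dopa, circles for libraries numbered 2 and triangles for those numbered 3. Levels run from 6.30 FPKM (Dck) to 240.5 FPKM (Nme2), and in genes such as Nme2, Adsl, Impdh2 and Guk1 both red points lie to the right of both blue ones.

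**Figure D2:**
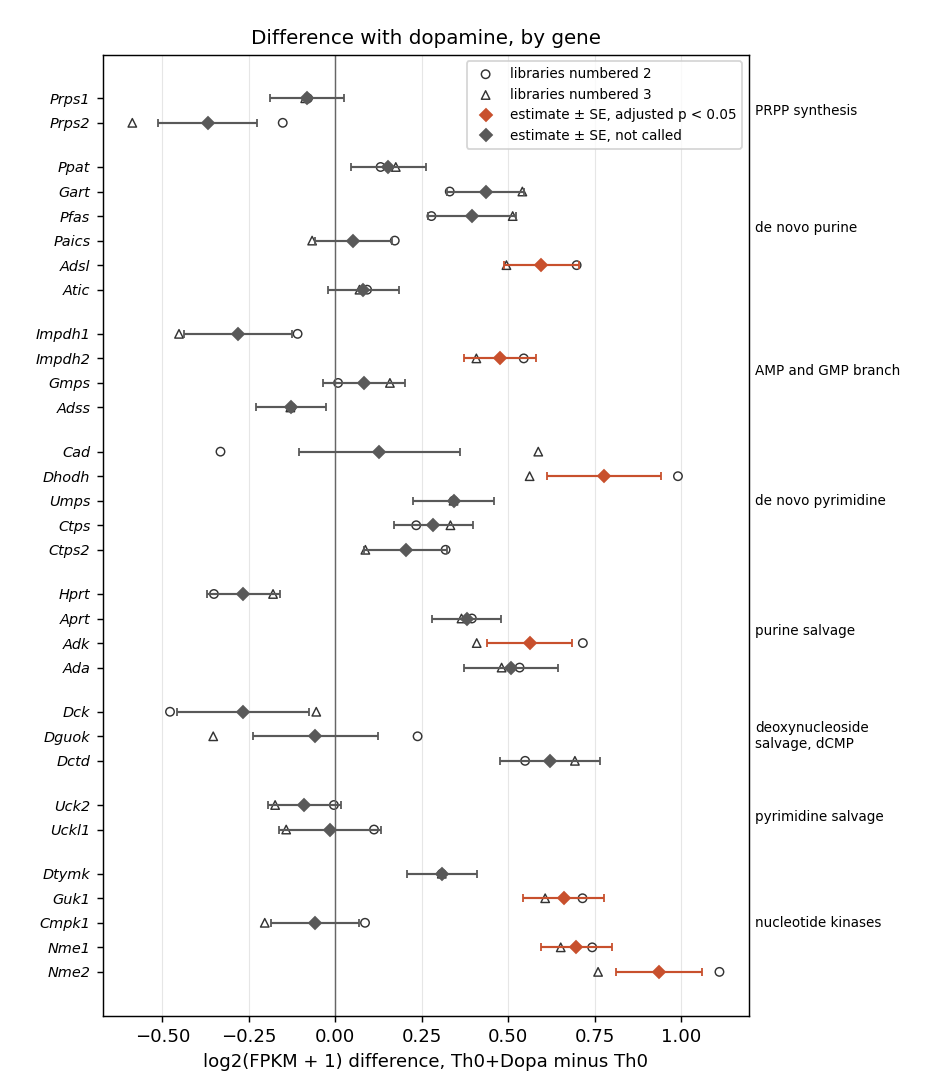
Difference of log2(FPKM + 1), Th0+Dopa minus Th0 (x), for the same genes (y): open symbols are the pairs numbered 2 and 3, and diamonds with bars are the limma estimate with 1 SE, red where the adjusted p was under 0.05. The 7 red genes are all to the right of 0, and the pairs of Cad and Dguok lie on opposite sides of it.

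Per kilobase of transcript, the most abundant members were Impdh2, Paics, Hprt and Aprt, with means over the 4 libraries of 192, 184, 178 and 177 FPKM. Their order is not fixed, since in Th0 Hprt stood highest at 194 ± 5.25 FPKM (SD, n = 2), ahead of Paics at 181 ± 9.85, and with dopamine Impdh2 was at 223 ± 22.7 and Nme2 at 217 ± 32.8, which overlap. At the other end were Dck with a mean of 8.43 FPKM, Dctd with 14.9 and Impdh1 with 16.3. The enzymes of the first steps were far from the most abundant: Ppat had a mean of 56.0 FPKM and Cad of 20.07. The ranks of Nme1 and Nme2 are uncertain, since Gm20390, a gene annotated across both, was listed at a mean of 169 FPKM.

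PRPP is made by the synthetases encoded by Prps1 and Prps2, and neither rose. Prps1 stood at 60.4 and 63.0 FPKM in Th0 and at 57.1 and 59.3 with dopamine (libraries 2 and 3), a log2 difference of -0.08 ± 0.11 (SE; limma adjusted p = 0.663). Prps2 stood at 49.7 and 50.6 against 44.6 and 33.4 FPKM, -0.37 ± 0.14 (adjusted p = 0.168). Both dopamine libraries lay below both Th0 libraries for each gene, and most of the Prps2 difference came from the pair numbered 3. The level of Prps1 is uncertain because 9.93% of the 50-base words in its transcripts are also in Prps1l3, which the tables list at 57.8, 55.8, 57.7 and 56.7 FPKM in Th0 2, Th0+Dopa 2, Th0 3 and Th0+Dopa 3.

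Of the 6 enzymes that build IMP from PRPP, Adsl rose and the others did not pass. Adsl (chromosome 15, 80948490 to 80970946, GRCm38) encodes adenylosuccinate lyase, which acts in the route to IMP and again in the step to AMP. It stood at 114 and 112 FPKM in Th0 and at 186 and 158 with dopamine, 1.63-fold and 1.41-fold within the pairs, with a log2 difference of 0.60 ± 0.11 (limma adjusted p = 0.0289). The Th0 libraries were close together, and both dopamine libraries were above them. Gart, which carries 3 activities of the route on a single protein, stood at 85.9 and 71.2 against 108 and 104 FPKM, 0.44 ± 0.11 (adjusted p = 0.0654), and Pfas, the next enzyme, had 0.40 ± 0.13 (adjusted p = 0.112); in both genes the groups did not overlap. Ppat, the amidotransferase of the committed step, stood at 53.8 and 52.2 against 59.0 and 59.0 FPKM, 0.15 ± 0.11 (adjusted p = 0.409). Paics, a carboxylase and ligase in the middle of the route, had 0.05 ± 0.11 with its groups overlapping, and Atic, which closes the ring, had 0.08 ± 0.10 (adjusted p = 0.808 and 0.655). Ppat and Paics lie head to head on chromosome 5, with RefSeq starts 276 bases apart and overlapping 5′ ends, so without known strand handling their reads cannot be fully told apart. For Gart, 15.5% of its 50-base words are shared with the overlapping antisense gene Gm15964, which was at most 1.39 FPKM.

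In the branches from IMP, the IMP dehydrogenases encoded by Impdh2 and Impdh1 had estimates of opposite sign. Impdh2 (chromosome 9, 108560286 to 108565584), the form known to be raised in dividing lymphocytes, stood at 164 and 156 FPKM in Th0 and at 239.5 and 207 with dopamine, a rise of 0.48 ± 0.10 (limma adjusted p = 0.0444). Impdh1, its paralog, stood at 16.5 and 19.4 FPKM against 15.2 and 13.9, -0.28 ± 0.16 (adjusted p = 0.302). The ratio of Impdh2 to Impdh1 in FPKM was 9.94 and 8.04 in Th0 and 15.8 and 14.9 with dopamine; this ratio was not tested. Gmps, which makes GMP, had 0.08 ± 0.12 (adjusted p = 0.696), and Adss, which commits IMP to AMP, had -0.13 ± 0.10 (adjusted p = 0.458). Impdh2 shares 39.3% of its 50-base words with the pseudogene Impdh2-ps, listed at 1.91 to 3.41 FPKM. The Impdh2 call did not hold with libraries scaled by the median of ratios (0.45, adjusted p = 0.0527) or with no filter on low values (adjusted p = 0.0686). Nor did it hold with a common sum.

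All 5 genes of pyrimidine synthesis had positive estimates as deposited, of which those of Cad and Ctps2 turned negative with a common sum (-0.11 and -0.05) and that of Cad also after the GC and length correction (-0.04), and Dhodh passed. Dhodh (chromosome 8, 109591343 to 109608673) encodes dihydroorotate dehydrogenase, the mitochondrial enzyme of the route. It stood at 12.95 and 11.03 FPKM in Th0 and at 26.7 and 16.8 with dopamine, 2.06-fold and 1.52-fold within the pairs, with a log2 difference of 0.78 ± 0.17 (limma adjusted p = 0.0427). Without Th0+Dopa 2 this difference was 0.42, and after correction of each pair for GC content and transcript length it was 0.66 (adjusted p = 0.0748). It also did not pass with no filter on low values (adjusted p = 0.0667). Cad, the protein of the first 3 steps, stood at 23.7 and 15.0 FPKM in Th0 and at 18.6 and 23.02 with dopamine; the groups overlapped, the pairs went opposite ways (-0.33 and 0.59) and the estimate was 0.13 ± 0.23 (adjusted p = 0.769). Umps, which makes UMP, stood at 29.6 and 28.3 against 37.8 and 36.2 FPKM. Its difference was 0.34 in each pair, with an estimate of 0.34 ± 0.12 (adjusted p = 0.129). The CTP synthetases did not pass either. Ctps stood at 39.7 and 36.4 against 46.9 and 46.2 FPKM, 0.28 ± 0.11 (adjusted p = 0.178), and Ctps2 at 44.5 and 49.2 against 55.8 and 52.4 FPKM, 0.20 ± 0.12 (adjusted p = 0.327).

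Among purine salvage genes Adk rose. It encodes adenosine kinase, which returns adenosine to AMP (chromosome 14, 21052574 to 21448569). Adk stood at 59.5 and 59.3 FPKM in Th0 and at 98.4 and 79.1 with dopamine, a log2 difference of 0.56 ± 0.12 (limma adjusted p = 0.0446), which was 0.37 without Th0+Dopa 2 and did not pass with libraries scaled by the median of ratios (0.54, adjusted p = 0.0512) or with no filter on low values (adjusted p = 0.0642). Ada, which deaminates adenosine to inosine, had 0.51 ± 0.14 (adjusted p = 0.0741), from 15.8 and 13.4 to 23.3 and 19.1 FPKM. The phosphoribosyltransferases had estimates of opposite sign. Hprt, for hypoxanthine and guanine, stood at 191 and 198 FPKM in Th0 and at 149 and 175 with dopamine, -0.27 ± 0.11 (adjusted p = 0.175). Aprt, for adenine, stood at 171 and 137 against 225 and 177 FPKM, 0.38 ± 0.10 (adjusted p = 0.0703). The Hprt to Aprt ratio in FPKM was 1.12 and 1.45 in Th0 and 0.665 and 0.990 with dopamine. Correcting for GC content and length changed the sign of both estimates, to 0.06 for Hprt and -0.04 for Aprt (adjusted p = 0.744 and 0.808). At the Pnp locus, M21 also annotates Gm49342 on the same strand, and the tables list it at 22.8 and 17.6 FPKM in Th0 and at 24.5 and 21.8 with dopamine. The annotation release of the tables is not known, and an older one may have given this ID (ENSMUSG00000021871) to Pnp, so these values may include Pnp.

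The salvage genes of pyrimidines and deoxynucleosides had no call. Dctd, which turns dCMP into dUMP, came nearest, at a mean of 11.5 ± 0.762 FPKM in Th0 (SD, n = 2) and 18.3 ± 0.182 with dopamine, with a log2 difference of 0.62 ± 0.15 (limma adjusted p = 0.0536). It passed with a pseudocount of 0.1 (adjusted p = 0.0354) and when testing was kept to genes averaging 5 FPKM or more (adjusted p = 0.0408). Dck, the deoxycytidine kinase of lymphocytes, had -0.27 ± 0.19 at levels of 6.30 to 9.32 FPKM, and its mitochondrial relative Dguok -0.06 ± 0.18 with opposite pairs. The uridine and cytidine kinase genes Uck2 and Uckl1 had -0.09 ± 0.11 and -0.01 ± 0.15. Uck2 was the more abundant of them, at 131 to 148 FPKM against 14.0 to 19.6.

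The kinases that raise monophosphates to triphosphates held 3 of the 7 calls. Nme2 (chromosome 11, 93949814 to 93956259) encodes a nucleoside diphosphate kinase, which makes nucleoside triphosphates. It stood at 111 and 114 FPKM in Th0 and at 240.5 and 194 with dopamine, 2.17-fold and 1.70-fold within the pairs, with a log2 difference of 0.94 ± 0.12 (limma adjusted p = 0.0116). Nme1, its neighbour and paralog (93956979 to 93968521), stood at 121 and 90.3 FPKM in Th0 and at 203 and 142 with dopamine, 0.70 ± 0.10 (adjusted p = 0.0151), with 0.41 without Th0+Dopa 2 and 0.45 without Th0 3. In both genes each dopamine library was above both Th0 libraries, and Nme2 was the only member called without the block (adjusted p = 0.0322). The value of each is uncertain, because M21 places the joined gene Gm20390 across both. Gm20390 shares 47.0% of the 50-base words of Nme2 and 11.1% of those of Nme1, and it stood at 138 and 120 FPKM in Th0 and at 225 and 192 with dopamine. Nme2 also shares 14.5% of its words with Gm7730, whose level is not given here.

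Guk1 (chromosome 11, 59183875 to 59192212), which phosphorylates GMP, stood at 32.5 and 26.1 FPKM in Th0 and at 53.9 and 40.3 with dopamine, 0.66 ± 0.12 (limma adjusted p = 0.0268). After the GC and length correction the Guk1 difference was 0.34 (adjusted p = 0.131), and without Th0+Dopa 2 it was 0.42. Dtymk, the thymidylate kinase, had 0.31 ± 0.10 (adjusted p = 0.120) and a difference of 0.31 in each pair. Cmpk1, which acts on CMP and UMP, had -0.06 ± 0.13 (adjusted p = 0.808). The summed FPKM of the 5 kinase genes was 397 and 369 in Th0 against 655 and 529 in Th0+Dopa. Its share of all summed FPKM was 0.0578% and 0.0515% against 0.0744% and 0.0666%.

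Promoter sequence is shown for genes that rose beside genes that did not, because the E-box CACGTG, the binding motif of MYC and its partner MAX, is known from promoters of nucleotide synthesis genes. Windows are the 250 bases before RefSeq starts on GRCm38.p6, and 30 of the 32 genes had one. The motif was searched on both strands, which read alike, and was in 5 of these 30 genes (16.7%), against 6.86% of all 27025 genes with a window. It was in 2 of the 6 risen genes with a window (Nme1 and Impdh2) and in 3 of the 23 genes without a call (Atic, Dtymk and Paics). A match describes letters and is not a shown binding site. The first 4 sequences below hold it, in capitals, and the last 2, from Nme2 and Adsl, do not; each runs 5′ to 3′ on the strand of its gene, from the outermost start, at chr11:93968273-93968522 (minus), chr9:108560186-108560435 (plus), chr1:71556906-71557155 (plus), chr1:93801935-93802184 (minus), chr11:93956257-93956506 (minus) and chr15:80948240-80948489 (plus).
Nme1: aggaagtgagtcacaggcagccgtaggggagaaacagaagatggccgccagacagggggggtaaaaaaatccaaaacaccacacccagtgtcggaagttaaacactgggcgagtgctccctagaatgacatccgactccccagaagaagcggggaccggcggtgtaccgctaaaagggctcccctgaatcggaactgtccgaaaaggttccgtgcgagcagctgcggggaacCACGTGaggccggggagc
Impdh2: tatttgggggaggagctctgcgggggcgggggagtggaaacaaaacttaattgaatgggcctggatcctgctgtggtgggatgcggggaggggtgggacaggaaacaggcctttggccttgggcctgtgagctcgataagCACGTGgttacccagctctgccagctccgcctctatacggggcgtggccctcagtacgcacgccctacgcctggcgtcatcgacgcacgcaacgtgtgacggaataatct
Atic: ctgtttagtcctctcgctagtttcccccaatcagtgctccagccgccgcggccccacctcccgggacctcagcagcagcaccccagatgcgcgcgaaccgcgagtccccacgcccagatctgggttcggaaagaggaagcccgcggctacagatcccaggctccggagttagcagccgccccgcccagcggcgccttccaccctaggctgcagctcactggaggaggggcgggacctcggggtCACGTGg
Dtymk: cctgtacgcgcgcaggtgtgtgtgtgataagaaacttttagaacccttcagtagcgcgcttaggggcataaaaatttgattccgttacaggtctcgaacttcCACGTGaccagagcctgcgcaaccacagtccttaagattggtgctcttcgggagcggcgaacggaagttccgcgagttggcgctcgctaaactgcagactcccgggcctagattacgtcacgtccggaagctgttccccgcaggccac
Nme2: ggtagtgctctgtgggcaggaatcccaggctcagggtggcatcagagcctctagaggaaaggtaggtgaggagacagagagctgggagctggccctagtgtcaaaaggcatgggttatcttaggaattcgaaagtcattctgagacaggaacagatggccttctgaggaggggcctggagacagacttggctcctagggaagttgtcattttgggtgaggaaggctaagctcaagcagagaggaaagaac
Adsl: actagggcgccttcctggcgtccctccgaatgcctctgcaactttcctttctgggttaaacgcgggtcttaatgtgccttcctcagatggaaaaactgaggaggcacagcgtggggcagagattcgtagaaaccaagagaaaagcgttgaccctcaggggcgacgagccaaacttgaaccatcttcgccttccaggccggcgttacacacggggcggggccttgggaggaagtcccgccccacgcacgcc
In Nme1 the E-box ends 12 bases before the start, in Impdh2 104, in Atic 1 and in Dtymk 142. The RefSeq starts used for Nme1 and Impdh2, at 93968272 and 108560436, lie inside the M21 spans given above for these genes. By the M21 spans, the E-boxes of Nme1 and Impdh2 are therefore within the genes and not before them. The M21 span of Atic begins at 71557150, before its RefSeq start at 71557156, so most of its E-box is also within the gene. Impdh2 and Nme1 rose by 0.48 and 0.70, while Atic and Dtymk, which hold the same letters, had 0.08 and 0.31 and did not pass.

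Other motifs known from such promoters were searched in the same windows. The element TGATGNAA, bound by C/EBP and ATF proteins, was in 1 of the 30 genes (Prps1; 3.33% against 3.91% of all genes, both strands). CCAAT was in 11 (36.7% against 37.5%), and the NRF1 motif in 1 (Ctps; 3.33% against 0.877%). None of these motifs contains another.

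Genes that feed nucleotide synthesis were read from lists of related genes, in the same fit. In that fit 6.28% of all tested genes were called higher and 4.39% lower. Of 12 tested genes of folate carbon supply, 3 rose and 0 fell (median 0.20). Mthfd2, a mitochondrial folate enzyme, stood at 60.5 and 64.8 FPKM in Th0 and at 125 and 118 with dopamine, 0.94 ± 0.11 (limma adjusted p = 0.00781). Shmt2, the mitochondrial serine hydroxymethyltransferase, rose by 0.86 ± 0.11 and Fpgs, which retains folates in the cell, by 0.81 ± 0.16. After the GC and length correction Fpgs had 0.60 (adjusted p = 0.0956). The enzymes Shmt1 and Mthfd1 of the cytosol had 0.10 ± 0.11 and 0.27 ± 0.11 and did not pass (adjusted p = 0.624 and 0.174). Further mitochondrial genes of this list went both ways without a call. Mthfd1l was lower in both pairs (-0.43 ± 0.13, limma adjusted p = 0.0922). Mthfd2l had -0.10 ± 0.33 and the carrier Slc25a32 0.37 ± 0.14 (limma adjusted p = 0.772 and 0.172). The pentose phosphate pathway of the cytosol is the source of the ribose in PRPP. Of 8 tested genes on its list, 3 rose and 0 fell (median 0.37). H6pd, whose enzyme is in the endoplasmic reticulum, rose by 1.06 ± 0.18, Pgls by 0.77 ± 0.15 and the transketolase Tkt by 0.51 ± 0.10. The dehydrogenase genes G6pdx and Pgd had 0.25 ± 0.12 and -0.29 ± 0.12 and did not pass (limma adjusted p = 0.250 and 0.187). The GC and length correction left Pgls at 0.23 (adjusted p = 0.320) and Tkt at 0.42 (adjusted p = 0.0585). Without Th0+Dopa 2, Pgls and Tkt had 0.37 and 0.31. Of 9 tested genes of glutamine and serine supply, 3 rose and 0 fell (median 0.11), and all 3 are the enzymes that make serine: Psph by 1.00 ± 0.13, Psat1 by 0.50 ± 0.10 and Phgdh by 0.47 ± 0.10. With the same correction Phgdh had 0.33 (adjusted p = 0.0791) and it had 0.29 without Th0+Dopa 2. Of the 14 calls over all related lists, 7 passed without the block and 9 after the GC and length correction, and none in the fits without Th0 2, Th0+Dopa 2, Th0 3 or Th0+Dopa 3, which also had no block.

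**Figure D3:**
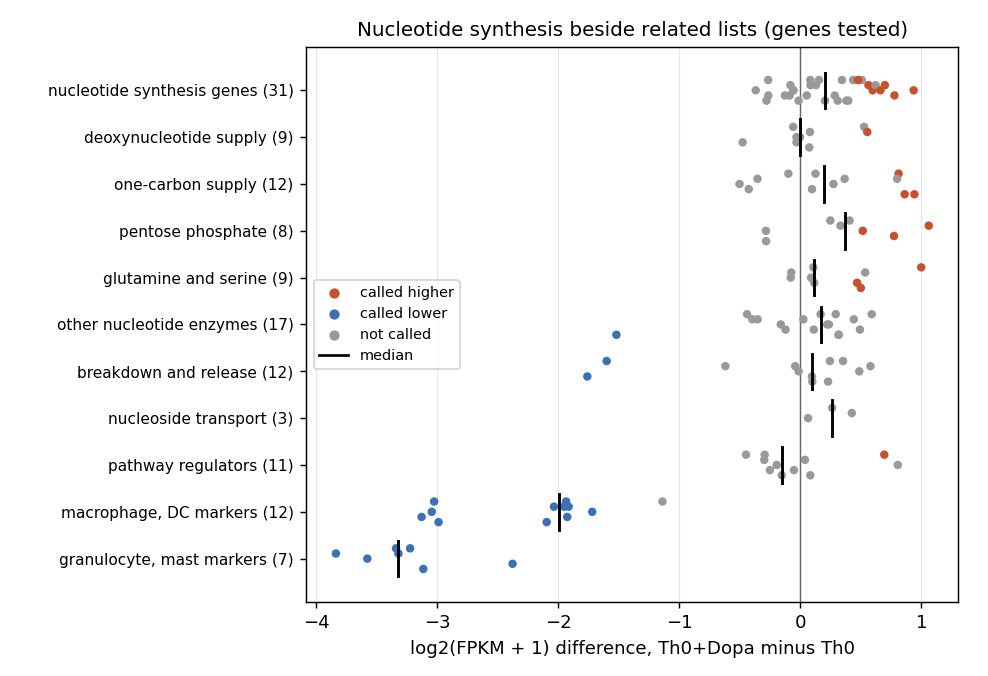
Difference of log2(FPKM + 1), Th0+Dopa minus Th0 (x), for each tested gene of the nucleotide synthesis set, related lists and markers of other blood cells (y, with the number tested), red where called higher, blue where called lower and gray otherwise, with black bars at the medians. The nucleotide synthesis genes have a median of 0.20 with 7 calls to the right, while the macrophage and granulocyte markers have medians of -1.99 and -3.32.

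The counts of the next lists stand beside 6.28% of all tested genes called higher and 4.39% called lower. Of 9 tested genes for making deoxynucleotides, 1 rose and 0 fell (median -0.0029). The gene that rose was the thymidine kinase Tk1, from 58.1 and 49.5 to 90.5 and 69.2 FPKM, by 0.55 ± 0.11 (limma adjusted p = 0.0365). Corrected for GC content and length, Tk1 had 0.43 (adjusted p = 0.0646) and Samhd1, which breaks down deoxynucleotides, passed in its place (0.63, adjusted p = 0.0413). Tk1 had 0.32 without Th0+Dopa 2. The ribonucleotide reductase subunits Rrm1 and Rrm2 had -0.0029 ± 0.10 and -0.48 ± 0.17 (adjusted p = 0.990 and 0.131). Among 17 tested other nucleotide enzymes, such as further NME and adenylate kinases, 0 rose and 1 fell (median 0.17). That gene, the mitochondrial adenylate kinase Ak4, stood at 21.8 and 15.5 FPKM in Th0 and at 5.18 and 6.39 with dopamine, and fell by 1.52 on the log2 scale (adjusted p = 0.0147). Of 12 tested genes of nucleotide breakdown, 0 rose and 2 fell (median 0.10). The guanine deaminase Gda changed by -1.76 ± 0.29, from 4.82 and 4.47 to 0.457 and 0.901 FPKM, and the uridine phosphorylase Upp1 by -1.60 ± 0.25, from 5.72 and 11.2 to 1.776 and 2.201 FPKM (adjusted p = 0.0215 and 0.0193). The macrophage and dendritic cell markers fell in the same libraries (median -1.99, 11 of 12 called); their part in the falls of Gda, Upp1 and Ak4 was not tested. Of 3 tested nucleoside transporters none passed, and Slc29a1 had 0.42 ± 0.13 (adjusted p = 0.102).

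Of the regulators known to act on these genes, Atf4 rose and Myc did not differ detectably. Myc stood at 59.5 and 56.7 FPKM in Th0 and at 50.9 and 69.96 with dopamine, 0.04 ± 0.15 (limma adjusted p = 0.903), with opposite pairs. Atf4 stood at 161 and 151 against 255 and 250.3 FPKM, 0.69 ± 0.10 (adjusted p = 0.0148). Among 11 tested regulators, Atf4 was the single call (median -0.15), and Mtor had 0.80 ± 0.20 (adjusted p = 0.0579). That call makes 9.09% of the regulators, where 6.28% of all tested genes were called higher.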

How the data were processed

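RNA of 4 libraries was measured by paired-end sequencing, each sample on 2 lanes. The authors deposited FPKM in 2 tables. Per the submitters' processing notes, the build was mm10 and the tools were Cufflinks 2.2.1, STAR 2.4.2, Trimmomatic 0.35, bcl2fastq 1.8.4 and FastQC 0.10.1. The sources used here do not give annotation release, strand use or FPKM normalization options, so overlapping and antisense genes are uncertain.

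GENCODE M21 named 36423 of 38282 IDs. The 11423 genes averaging 1 FPKM or more were tested on log2(FPKM + 1) with limma 3.58.1 (lmFit, eBayes with trend) in R 4.3.3, with the table, which equals the replicate number, as a block. The test was two-sided with Benjamini-Hochberg adjustment over all tested genes. It leaves 1 residual degree of freedom, and the prior adds 4.70. The estimate is the mean of both within-table differences and follows with its SE after ±. Fold changes on this scale understate changes of low genes. Depth was estimated from single-transcript genes over 1 kb, less 150 bases; 89.2% to 90.2% of low values fell 0.15 fragment or less from whole fragments, where chance gives 30%.

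Members and lists were chosen with earlier results of these data known, so no list was tested. Every member is accounted for; library values are given for members called and for Prps1, Prps2, Ppat, Impdh1, Impdh2, Cad, Ctps, Ctps2, Umps, Dhodh, Nme1, Nme2 and Hprt. Of each related list, up to 4 called genes are named, or the largest difference where none passed, with Myc and Atf4 among regulators; any further gene was chosen with its values in view. Alternatives tried were a smaller pseudocount, filters and scalings, no trend, no block, a GC and length correction (loess, span 0.3) and each library left out.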

Additional observations from a re-analysis of the deposited data

How the results depend on the processing

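Members called higher numbered 7, and 8 with a pseudocount of 0.1 or a mean FPKM of at least 5, 5 with the median of ratios or the GC and length correction, 4 with no filter or with small RNA left out before scaling to a common sum, 2 with a common sum, 1 with no replicate block, and 0 without limma's trend or in each fit without a library. Members called lower numbered 0, but 2 (Prps2 and Hprt) under both common-sum scalings, and 0 in each fit without a library. The members' median log2 difference (0.20) was -0.0472 with a common sum, 0.0031 with small RNA left out first and 0.33 after the GC and length correction, and ran from 0.17 to 0.33 in the fits without a library. All genes had medians of -0.20 and -0.16 under these scalings, with 376 and 494 calls higher and 1064 and 1413 lower, against 717 and 501 as deposited. Without limma's trend 106 rose and 150 fell. With no replicate block 256 of all genes rose and 240 fell, and with a pseudocount of 0.1 these were 906 and 631. With no filter they were 442 and 298, and with a mean FPKM of at least 5 they were 779 and 449. The median of ratios gave 637 and 526, and the GC and length correction 492 and 376. Calls higher and lower were 13 and 9 when Th0 2 was left out, 1 and 2 when Th0 3 was, and 0 and 0 when either Th0+Dopa library was. Those fits had no block, scaled libraries by the median of ratios and took the lone library to vary like the others. The cause of each change was not tested.

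Related lists gave these calls, with the smaller changes first. Folate carbon genes had 4 higher with a pseudocount of 0.1. They had 2 higher with no filter, under both common-sum scalings and after the GC and length correction. Glutamine and serine genes had 4 higher with that pseudocount or a mean FPKM of at least 5. These had 2 higher with the median of ratios or the GC and length correction. The larger changes follow. With no replicate block, deoxynucleotide and pentose phosphate genes had 0 higher, glutamine and serine genes 1 higher, and breakdown genes 1 lower. With a pseudocount of 0.1, deoxynucleotide genes and regulators had 2 higher each and other nucleotide enzymes 1 higher. With no filter, deoxynucleotide genes had 0 higher, and pentose phosphate and glutamine and serine genes 1 higher each. With a mean FPKM of at least 5, other enzymes had 1 higher and breakdown genes 1 lower. With a common sum, deoxynucleotide and pentose phosphate genes and regulators had 0 higher, glutamine and serine genes 1 higher, and folate carbon genes 1 lower. With small RNA left out first, deoxynucleotide genes had 0 higher and 1 lower, glutamine and serine genes 1 higher, folate carbon and pentose phosphate genes 2 lower each, and regulators 1 lower. Without trend 1 breakdown gene was lower and every other list had 0. After the GC and length correction 9 of the 14 calls remained and those of Fpgs, Phgdh, Tk1, Pgls and Tkt were lost, which left 1 pentose phosphate gene higher. Without a library every list had 0 in both directions.

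Estimates of some members without a call changed sign. With a common sum the log2 differences were -0.0975 for Ppat, -0.2018 for Paics, -0.1713 for Atic, -0.1652 for Gmps, -0.115 for Cad and -0.0472 for Ctps2. With small RNA left out first they were -0.0471, -0.1508, -0.1206 and -0.1153 for Ppat, Paics, Atic and Gmps and -0.0665 for Cad. After the GC and length correction they were 0.0994 for Adss, -0.0404 for Cad, 0.0609 for Hprt and -0.0407 for Aprt. In the fits without a library the differences ran from -0.0496 to 0.1004 for Paics, -0.2204 to 0.4242 for Cad, -0.2392 to 0.0735 for Dguok, -0.276 to 0.1955 for Uckl1 and -0.224 to 0.0531 for Cmpk1.

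The replicate block separates the tables, and the labels do not tie equal numbers to an animal, culture or day. Without it Nme2 was called (adjusted p = 0.0322) and the other 6 members were not (up to 0.145). None of the 7 called members changed sign under any alternative run. Having 2 libraries a group limits what could be detected.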

Other observations

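Some genes of nucleotide metabolism lay under the filter of a mean of 1 FPKM and were not tested. Tymp, a thymidine phosphorylase, was listed at 0.140 and 0.186 FPKM in Th0 and at 0.832 and 1.26 with dopamine. Nt5e, the surface enzyme CD73 that makes adenosine from AMP, stood at 0.805 and 1.07 FPKM in Th0 and at 0.217 and 0.215 with dopamine. Aldh1l2, a mitochondrial folate enzyme, stood at 0.308 and 0.492 FPKM against 0.826 and 1.72, and Adssl1, the muscle form of adenylosuccinate synthetase, at 1.24 and 1.41 against 0.635 and 0.540 FPKM. In each of these 4 genes, chosen with their values in view, the groups did not overlap, but levels this low rest on few fragments. Of all tested genes, 31.4% had both dopamine libraries above both Th0 libraries and 25.6% had both below. Among other untested genes of these lists, Ak5, Ampd1 and Slc28a3 also had both dopamine libraries below both Th0 libraries, at 0.433 FPKM or less. Others, such as Gmpr and Ampd3, had overlapping groups. The cytidine deaminase gene Cda, the adenylate kinase gene Ak8 and the transporter gene Slc28a1 were listed at 0 in all 4 libraries.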
